A study of Saccharomyces cerevisiae with 17 samples.

Results

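The genes described here encode the machinery that copies the nuclear DNA of budding yeast, Saccharomyces cerevisiae. They are 52 genes chosen by name for their known function, with earlier results of these data known, out of 6002 nuclear protein-coding genes, and all 52 were found in the gene table. The series mapped methylated lysine 4 of histone H3 by ChIP-seq, the sequencing of DNA that an antibody pulls down with a protein mark, in formaldehyde-fixed cells of strain BY4741A growing exponentially in YPD, a rich medium. Of its 17 libraries, 4 were used, all replicate 1: cells with SET1 deleted (set1delta) and cells with the Cps25 protein unmutated (cps25_WT), each with 1 library for the dimethyl mark (H3K4me2) and 1 for the trimethyl mark (H3K4me3). The other 13 libraries, which include the Cps25 mutants and the input, were not analysed here. Each group thus has 1 peak list and no replicate spread, so groups were not tested against each other and every difference describes these libraries. Cultures were exponential and not synchronised by any step the labels give, so a peak reports cells of all cell cycle stages together.

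Replication begins where the origin recognition complex binds DNA. In G1 phase this complex, with Cdc6 and the yeast Cdt1 protein, loads the MCM helicase as an inactive ring. The kinases of S phase then recruit Cdc45 and the GINS complex, and DNA polymerases, the sliding clamp and its loader follow. Many of these genes in yeast are known to be transcribed in a burst in late G1 or around the transition from M to G1 phase. H3K4me3 is known to lie over the start of transcribed genes and H3K4me2 to reach somewhat further downstream. Both are made by Set1, the enzyme of the COMPASS complex, to which Cps25 also belongs. SET1 itself had a listed peak in neither set1 deletion list and in both Cps25 wild-type lists.

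A gene counted as marked where a listed peak overlapped the 500 bp that follow its start codon, or its open reading frame (ORF) if that was shorter, by at least 1 bp. Distances below run along the gene from the first base of the start codon, and a negative distance is upstream. The score of a peak is the authors' own, on an unstated scale, and is printed only as its percentile among the peaks of its list. Read depth is unknown for all 4 libraries. Intervals after a share are exact 95% (Clopper-Pearson) intervals over genes, for counting error only.

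In set1 deletion cells none of the 52 replication genes was marked with either antibody (0 of 52 in each list, interval 0 to 6.85%), against 4.75% of all genes with the H3K4me2 antibody and 3.40% with the H3K4me3 antibody. In Cps25 wild-type cells 49 of the 52 were marked by H3K4me2 (94.2%, 84.1 to 98.8) and 48 by H3K4me3 (92.3%, 81.5 to 97.9). Among all genes the shares were 75.1% and 68.7%. The marks coincided at 47 of the 52 genes (90.4%), against 66.2% of all genes. H3K4me2 stood alone at PSF3 and RNR2 (3.85% of the replication genes, 8.85% of all genes) and H3K4me3 alone at POL32 (1.92%, against 2.52%). POL32 has set1 deletion peaks near its start. Where none lay near the start, H3K4me3 stood alone at 0 of 50 replication genes, against 0.137% of all such genes. Only RNR1 and RNR3, both genes of the large subunit of ribonucleotide reductase, carried neither (3.85%, against 22.4%).

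The replication genes differ from all genes in naming, in length and in how often a set1 deletion peak lies near the start, and the part of these in the shares was not tested. A set1 deletion peak of either antibody lay from 500 bp before to 1000 bp after the start codon at 2 of the 52 replication genes, MCM3 and POL32 (3.85%), against 14.7% of all genes. With such genes left out, 96.0% of 50 replication genes were marked by H3K4me2, 92.0% by H3K4me3 and 4.00% by neither, against 80.9%, 72.8% and 19.1% of the remaining genes. All 52 genes have a standard name, and among the 5257 nuclear coding genes that have one 80.1% were marked by H3K4me2 and 74.2% by H3K4me3. Replication ORFs had a median length of 1766 bp, against 1200 bp for all genes. Among ORFs of at least 1000 bp, 39 of 42 replication genes were marked by each of the marks (92.9%), against 80.9% of all genes for H3K4me2 and 74.0% for H3K4me3. When only the upper 50% of each list by score was kept, 24 of the 52 genes were marked by H3K4me2 (46.2%, against 40.7% of all genes) and 19 by H3K4me3 (36.5%, against 36.6%). The median score percentile was 49.4 for the 49 replication genes with H3K4me2 (quartiles 32.5 and 66.3, 95% interval of the median 42.4 to 62.9), against 53.9 for all marked genes. For H3K4me3 it was 41.5 for the 48 replication genes (quartiles 28.5 and 56.9, interval 33.4 to 55.2), against 53.0. More of the replication genes than of all genes were thus marked, at scores near or below the middle of the lists.

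**Figure D1:**
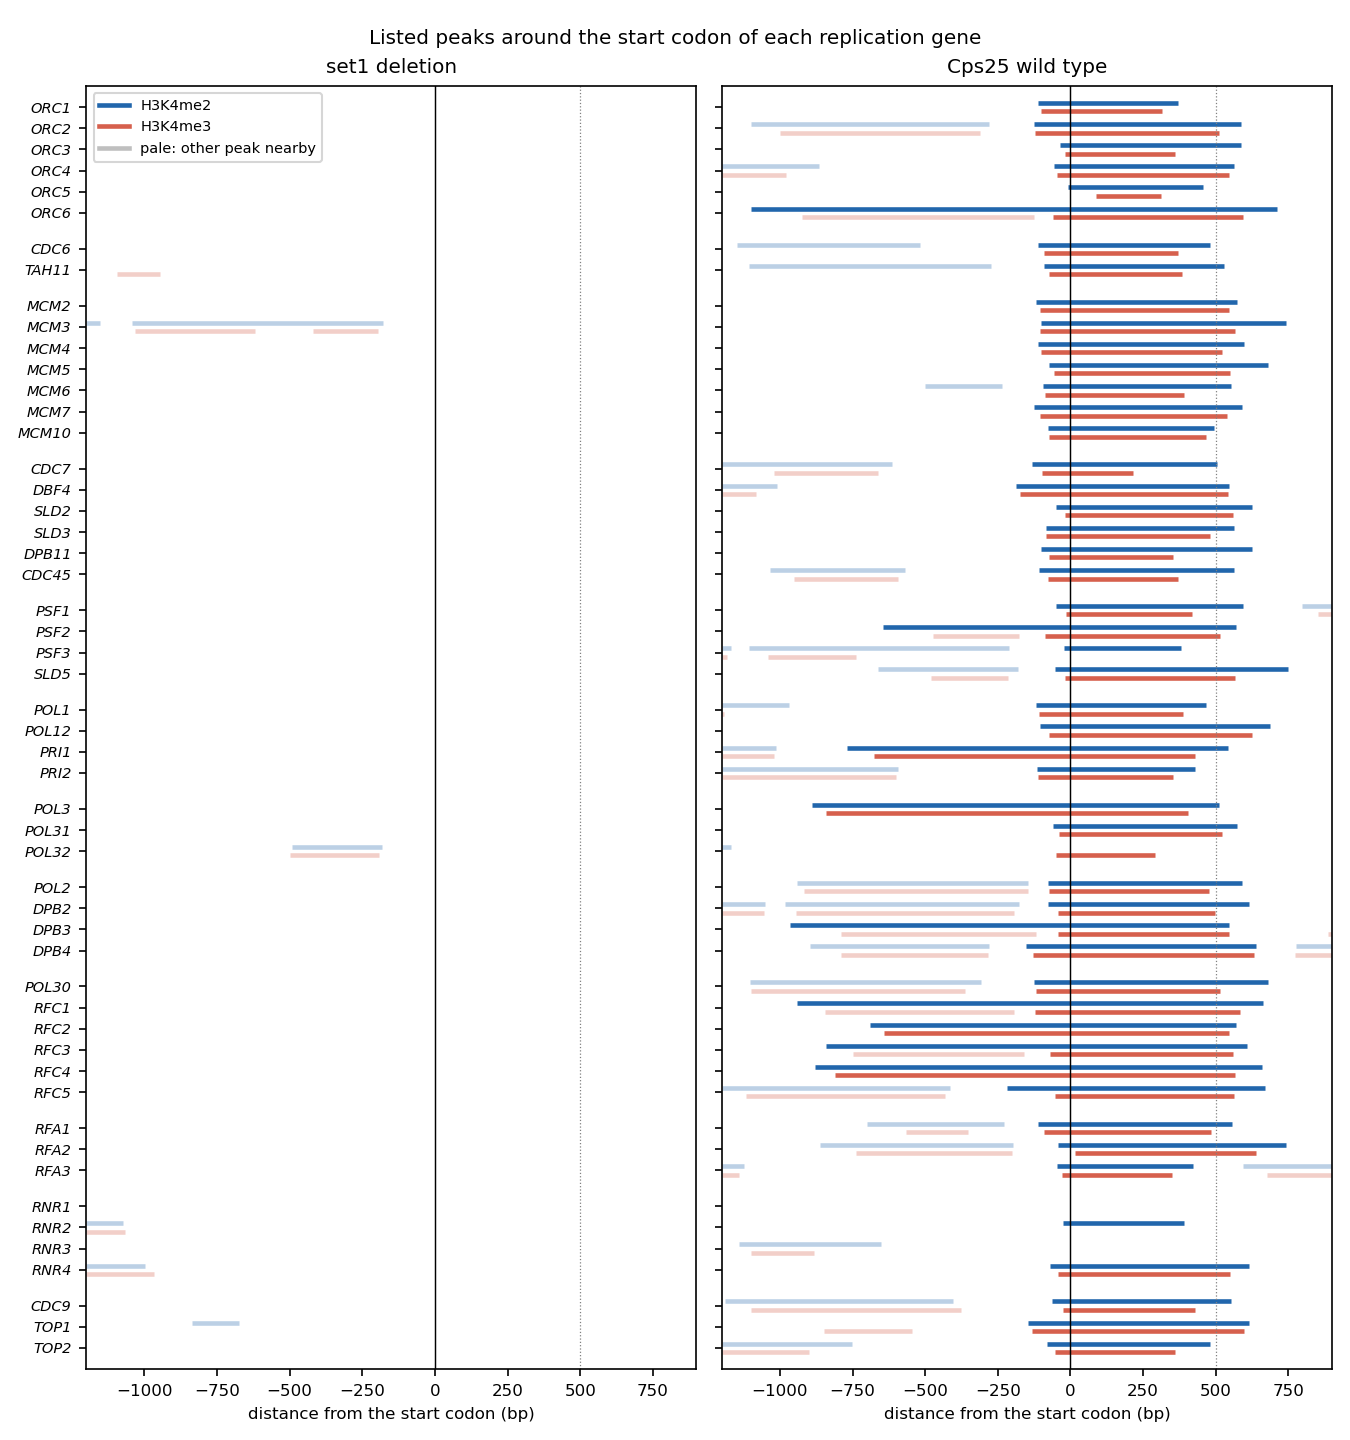
Listed peaks around the start codon of the 52 replication genes, grouped by role, in set1 deletion cells and in Cps25 wild-type cells, with distance from the start codon in bp on the x axis. Dark bars are the highest-scoring peak over the first 500 bp of the ORF (dotted line at 500 bp) and pale bars are other peaks nearby, cut at the frame. No dark bar appears in set1 deletion cells, and in Cps25 wild-type cells RNR1 and RNR3 are the rows with no dark bar.

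The origin recognition complex, which binds origins throughout the cell cycle, was marked by H3K4me2 and H3K4me3 at all 6 of its genes. ORC2 led, with an H3K4me2 peak from -125 to 587 bp at score percentile 77.0 and an H3K4me3 peak from -121 to 511 bp at percentile 74.3. ORC5 had the lowest, with H3K4me2 from -8 to 455 bp at percentile 13.8 and H3K4me3 from 87 to 312 bp at percentile 2.89. Its H3K4me3 peak, 226 bp wide, did not reach the start codon. ORC5 lies directly downstream of POL2 on the same strand (chromosome XIV, 155100 to 156539, and 148212 to 154880). ORC1, an ATPase subunit (H3K4me2 percentile 23.1, H3K4me3 percentile 23.6), and ORC3 (31.6 and 33.4) lay between ORC5 and the higher genes. ORC4 (46.1 and 64.3) and ORC6 (65.3 and 62.6) stood higher. At ORC3 the H3K4me2 peak ended 227 bp beyond the H3K4me3 peak, the widest such step in the complex.

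Both helicase loading genes were marked by both. CDC6, whose ATPase brings the helicase to the origin, had H3K4me2 from -110 to 480 bp (percentile 53.1) and H3K4me3 from -91 to 371 bp (percentile 33.6). TAH11, the yeast gene of Cdt1, had H3K4me2 from -91 to 529 bp (percentile 40.0) and H3K4me3 from -75 to 384 bp (percentile 31.8). At both genes H3K4me3 ended more than 100 bp short of H3K4me2, by 109 and 145 bp.

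All 6 genes of the MCM ring, MCM2 to MCM7, and MCM10, a factor that acts on the loaded helicase, carried both marks. Their peaks began close together, H3K4me2 between -127 and -75 bp and H3K4me3 between -106 and -57 bp in all 7. Their H3K4me2 percentiles ran from 46.8 at MCM5 to 88.1 at MCM3 with a median of 66.3, and their H3K4me3 percentiles from 41.9 at MCM6 to 67.8 at MCM10 with a median of 55.7. No other role with more than 4 marked genes had so high a lowest value. Among the smaller roles, polymerase epsilon (51.7, 4 genes) and polymerase delta (62.9, 2 marked genes) had a higher lowest value for H3K4me2, and none had for H3K4me3. The value of polymerase delta is that of POL3, whose peak also held the start of its neighbour QRI1. MCM2 had percentiles of 48.9 for H3K4me2 and 55.7 for H3K4me3. MCM4 had 68.9 and 61.3, and MCM7 had 63.3 and 54.4. The set1 deletion lists held peaks upstream of MCM3, from -1044 to -177 bp with the H3K4me2 antibody and from -420 to -196 bp with the H3K4me3 antibody, over a tRNA gene (chromosome V, 86604 to 86685). The Cps25 wild-type peaks of MCM3 lay downstream of these, from -103 to 743 bp for H3K4me2 and from -106 to 567 bp for H3K4me3.

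Origin firing needs the Dbf4-dependent kinase and the factors that join Cdc45 and GINS to MCM. DBF4, the regulatory subunit of that kinase, had the highest H3K4me2 score of all the replication genes, at percentile 95.1 from -187 to 545 bp, and H3K4me3 at percentile 73.8 from -172 to 541 bp. Its marks ended only 4 bp apart. CDC7, the catalytic subunit of the same kinase, had H3K4me2 from -134 to 505 bp at percentile 28.5 and H3K4me3 from -98 to 216 bp at percentile 21.1. The 289 bp between these ends was the longest step among the 47 genes with both marks, so the genes of the 2 kinase subunits differed in score and in the spacing of the marks. DPB11, a scaffold that binds phosphorylated Sld2 and Sld3, had a step of 271 bp (percentiles 31.7 for H3K4me2 and 13.7 for H3K4me3), and CDC45 a step of 194 bp (23.0 and 9.79). SLD2 (40.2 and 36.2) and SLD3 (49.4 and 54.2) had steps of 63 and 85 bp.

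The GINS genes have short ORFs of 585 to 885 bp. PSF1 (percentiles 53.4 for H3K4me2 and 33.4 for H3K4me3), PSF2 (58.7 and 56.0) and SLD5 (43.2 and 15.9) carried both marks. PSF3 (chromosome XV, 48864 to 49448) was far from set1 deletion peaks, the nearest lying 12132 bp from its start codon for the H3K4me2 antibody and 5707 bp for the H3K4me3 antibody. In Cps25 wild-type cells it had H3K4me2 from -22 to 380 bp at percentile 13.9 and no H3K4me3. No peak number was absent from the H3K4me3 list there. Over its first 500 bp the divergent neighbour PEX11 likewise had H3K4me2 and no H3K4me3, while CTR9, which lies downstream of PSF3, had both. An H3K4me3 peak from 47822 to 48126 lay further along the PEX11 ORF (47933 to 48643), outside that window.

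The 3 replicative polymerases were marked at all of their genes, with 1 exception for H3K4me2. POL1, the catalytic subunit of polymerase alpha, had percentiles of 31.3 for H3K4me2 and 45.3 for H3K4me3. POL12, its second subunit, had 32.8 and 33.8, and the primase genes PRI1 and PRI2 had 74.7 and 63.2, and 32.5 and 36.0. POL3, the catalytic subunit of polymerase delta, had 62.9 and 56.7, and POL31 had 85.5 and 41.1. For polymerase epsilon, the catalytic subunit gene POL2 had 51.7 and 66.1, DPB2 had 60.4 and 20.0, DPB3 had 67.2 and 36.6, and DPB4 had 54.7 and 41.9. The 4 epsilon genes lay close together for H3K4me2, between 51.7 and 67.2, and further apart for H3K4me3. The H3K4me2 peaks of PRI1, POL3 and DPB3 also held a neighbour's start codon, so their ranks are not those of the replication gene alone.

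POL32, the third subunit of polymerase delta (chromosome X, 516461 to 517513), was the exception. A set1 deletion peak of each antibody stood just upstream of it, from -493 to -181 bp for H3K4me2 and from -500 to -194 bp for H3K4me3, over the tRNA gene IMT3. In Cps25 wild-type cells H3K4me3 ran from -50 to 292 bp at percentile 29.0 and no H3K4me2 peak was listed. By their names the wild-type lists had peaks of the set1 deletion removed, and 0 of 4393 H3K4me2 and 0 of 4087 H3K4me3 peaks overlapped a set1 deletion peak of their antibody. Exactly 1 H3K4me2 peak number was absent between the listed peaks on either side of the POL32 start (514770 to 518680), a stretch that also holds IMT3. Whether POL32 carried H3K4me2 in these cells cannot be told apart from the effect of that filter.

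The sliding clamp and the complex that loads it carried both marks at all 6 genes. POL30, the gene of the clamp PCNA, had H3K4me2 from -127 to 680 bp (percentile 44.2) and H3K4me3 from -117 to 516 bp (percentile 33.0). RFC5 (37.7 and 24.0), which faces POL30 tail to tail on chromosome II, lay lower than the 4 other loader genes. The H3K4me2 peaks of those 4 also held a neighbour's start codon, and so did the H3K4me3 peaks of RFC2 and RFC4. The peaks of RFC5 held no other start, so these ranks are not like for like. RFC1, the largest subunit of the loader, had percentiles of 92.9 for H3K4me2 and 73.7 for H3K4me3, RFC3 had 77.9 and 75.9, RFC2 had 67.3 and 57.3, and RFC4 had 65.5 and 70.0. RFC3 had the highest H3K4me3 percentile among the 48 replication genes marked by H3K4me3, so none of them stood in the top 10% of that list, where 11.0% of all genes marked by H3K4me3 stood. For H3K4me2, DBF4 and RFC1 stood in the top 10% (4.08% of 49, against 11.1% of all marked genes), RFC1 with a peak that also held the start of RUD3.

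Replication protein A, which coats single-stranded DNA, had both marks at its 3 genes. RFA1 had percentiles of 64.3 for H3K4me2 and 55.2 for H3K4me3, RFA2 had 42.4 and 24.6, and RFA3 had 24.4 and 26.9. At RFA2 the H3K4me3 peak ran from 14 to 637 bp, beginning after the start codon, and ORC5 was the only other replication gene with that placement. RFA3 has the shortest ORF of the 52, 369 bp, and its H3K4me2 peak ended at 420 bp, beyond the ORF. The ligase CDC9, which seals Okazaki fragments, had H3K4me2 at percentile 25.9 and H3K4me3 at 5.70. The topoisomerase genes TOP1 (45.9 and 46.7) and TOP2 (31.3 and 11.8) were marked by both.

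**Figure D2:**
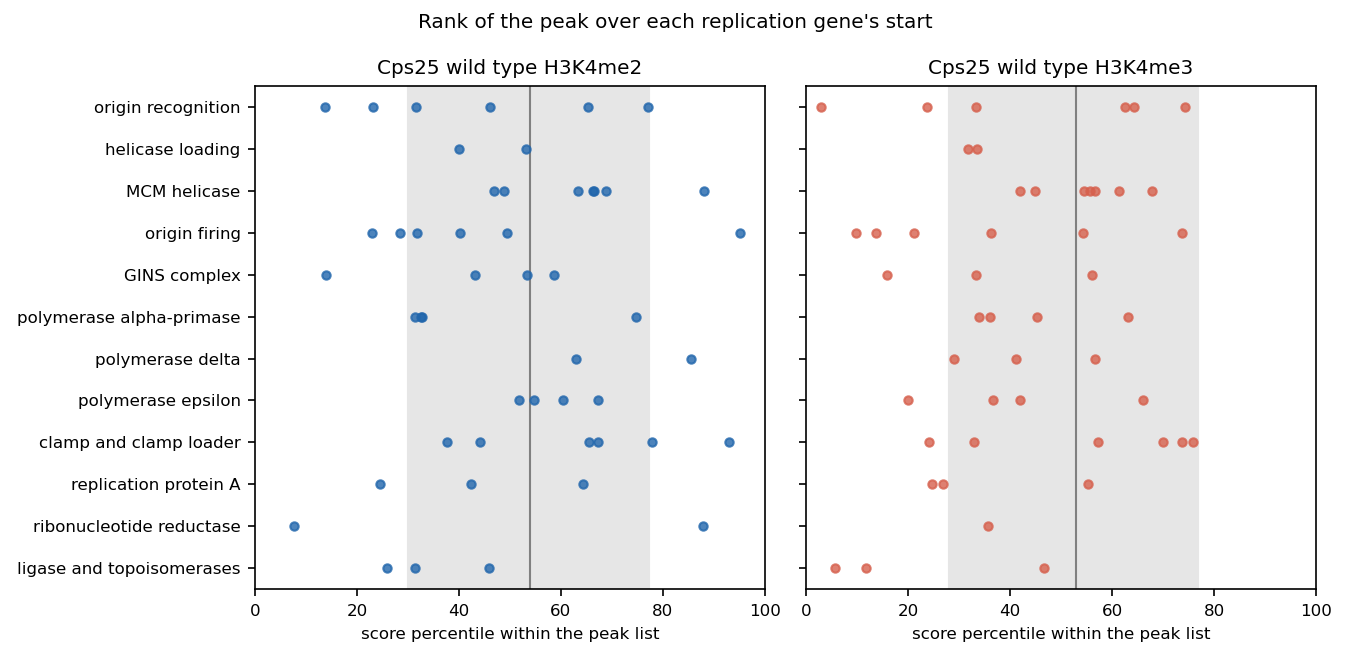
Score percentile of the peak over each replication gene's start, within the H3K4me2 list (left) and the H3K4me3 list (right) of Cps25 wild-type cells, by role. Each point is a gene, the grey band runs between the quartiles of all marked genes and the grey line is their median. The MCM genes lie within 41.9 to 67.8 for H3K4me3, and no point lies above 75.9 there.

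Ribonucleotide reductase, which makes the deoxynucleotides, had H3K4me2 at 2 of its 4 genes and H3K4me3 at 1, against 75.1% and 68.7% of all genes, and 4 genes are too few to set these shares apart. The H3K4me3 missing at 1 of the 4, RNR2, cannot be told apart from the filter of the lists. Among the other 48 replication genes, H3K4me3 was missing at PSF3 and H3K4me2 at POL32. RNR1, the gene of the large subunit used in normal S phase, lies on chromosome V from 298950 to 301616. The nearest set1 deletion peaks lay 3962 bp downstream of its start codon for the H3K4me2 antibody and 5112 bp for the H3K4me3 antibody. In Cps25 wild-type cells the nearest H3K4me2 peak ended 2843 bp upstream and the nearest H3K4me3 peak 2988 bp upstream, both over the first 500 bp of ARG56. RNR1 thus lay in a stretch of 6101 bp with no listed H3K4me2 peak and of 6743 bp with no listed H3K4me3 peak. The median distance between neighbouring peaks was 1311 and 1485 bp, and 223 of 4377 and 220 of 4071 such stretches were at least as long. No peak number was absent in either stretch and no set1 deletion peak lay over RNR1.

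RNR3, the large subunit gene known to be induced by DNA damage and repressed without it, lies on chromosome IX from 238099 to 240708. Its nearest set1 deletion peaks were 7970 bp (H3K4me2 antibody) and 8023 bp (H3K4me3 antibody) away. In Cps25 wild-type cells the nearest peaks lay upstream over the start of FIS1, from -1141 to -651 bp for H3K4me2 at percentile 12.8 and from -1099 to -884 bp for H3K4me3 at percentile 6.70. Again no peak number was absent. All 4 other protein-coding genes with any part within 3500 bp upstream of RNR3, FIS1, EFM4, YRB2 and ARC15, carried both marks. RNR1 and RNR3 encode closely related proteins, and the sources used here do not say how reads common to both copies were placed. Its part in the absence of peaks was not tested.

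The small subunit genes differed from each other. RNR4 (chromosome VII, 855264 to 856301) had H3K4me2 from -72 to 616 bp at percentile 87.8, the fourth highest of the set, and H3K4me3 from -42 to 549 bp at percentile 35.6. RNR2 (chromosome X, 392404 to 393603) had H3K4me2 from -26 to 391 bp at percentile 7.59, the lowest of the set, and no listed H3K4me3. RNR2 in set1 deletion cells had peaks upstream, from -1449 to -1075 bp and from -1417 to -1065 bp, over the tRNA gene EMT5, and 1 number was absent from the wild-type H3K4me3 list between the peaks on either side of the RNR2 start. In that stretch lay 1 set1 deletion peak of the H3K4me3 antibody, the one that ended at -1065 bp. A wild-type peak removed for overlapping it would have lain there, and whether it also reached RNR2 cannot be told from the lists.

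H3K4me2 reached beyond H3K4me3 at every replication gene that carried both. Median end positions were 574 bp for H3K4me2 (quartiles 544 and 623) and 513 bp for H3K4me3 (389.5 and 554.5), against 584 and 494 bp over the 3975 genes of the whole genome with both marks. The median step from the end of H3K4me3 to the end of H3K4me2 was 85 bp (95% interval of the median 71 to 116, range 2 to 289), against 82 bp. H3K4me2 ended further downstream in 47 of 47 replication genes (100%, 92.5 to 100), against 94.5% of all genes. The H3K4me3 peak lay wholly inside the H3K4me2 peak in 46 of 47 (97.9%, 88.7 to 99.9), against 76.6% of all genes, and MCM3 was the exception by 3 bp at its upstream end. The median step was thus close to that over the genome, and it went the same way in all 47 genes. Since each mark comes from 1 library of unknown depth, enrichment and depth cannot be told apart as sources of the step.

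**Figure D3:**
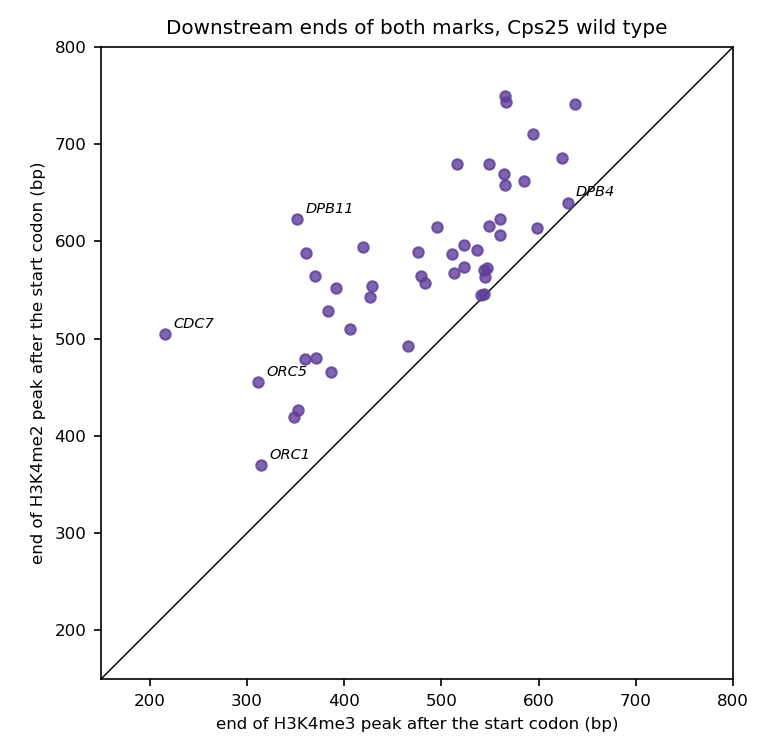
End of the H3K4me2 peak (y axis, bp after the start codon) against the end of the H3K4me3 peak (x axis, bp after the start codon) for the 47 replication genes with both marks in Cps25 wild-type cells. The line marks equal ends. All points lie above it, CDC7 by 289 bp and DPB4 by 10 bp.

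Along the gene the peaks of the replication genes lay mostly near the start. Between 100 and 200 bp after the start codon 94.2% of their bases lay under H3K4me2 peaks and 92.3% under H3K4me3 peaks, against 73.2% and 66.7% for all genes. Between 700 and 800 bp the replication genes had 5.31% and 2.48%, lower than the 14.1% and 8.77% of all genes. These steps count bases whether or not the ORF reaches that far. The lower quartile of ORF length was 711 bp for all genes and 1060 bp for the replication genes, and the part of length in this difference was not tested. In set1 deletion cells the replication genes had no peak of either antibody anywhere over their ORFs (0 of 52 each, against 6.75% and 5.48% of all genes). Of the 42 replication ORFs of at least 1000 bp, 4 had an H3K4me2 peak reaching their last 500 bp (9.52%, against 9.35%), and these were RFC2, RFC3, RFC5 and RNR4, with ORFs of 1023 to 1065 bp, where the peak over the start extended that far. The long ORFs, POL2 at 6669 bp, POL1 at 4407 bp and TOP2 at 4287 bp among them, had no peak of either mark over the last 500 bp.

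**Figure D4:**
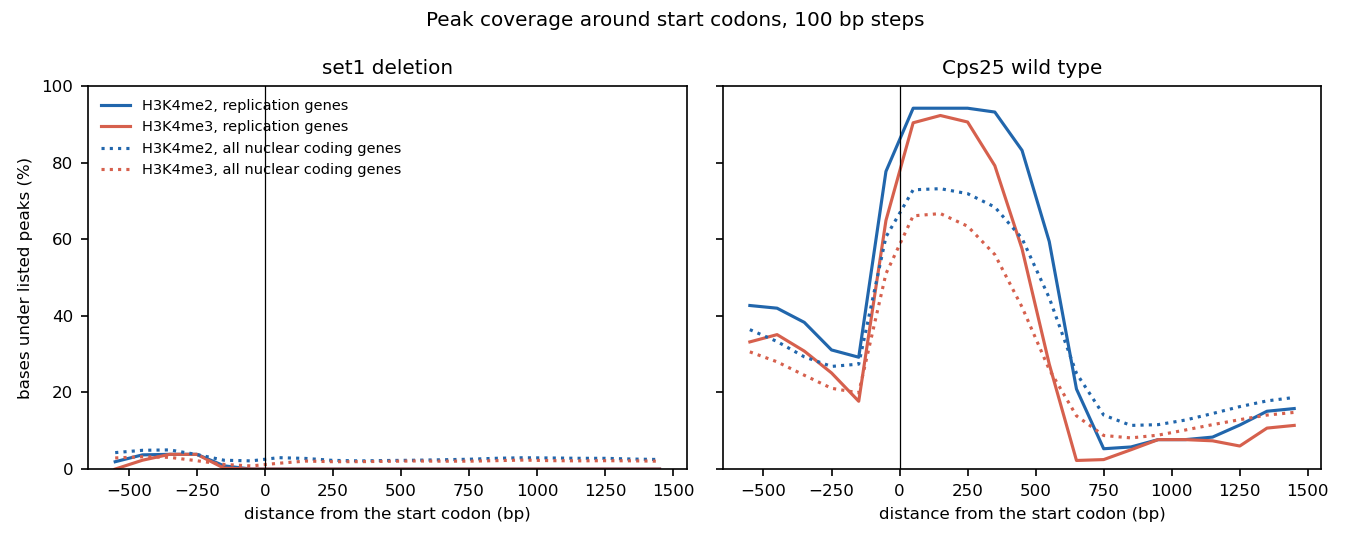
Share of bases under listed peaks (y axis, %) in steps of 100 bp by distance from the start codon (x axis, bp) for the 52 replication genes (solid) and all 6002 nuclear coding genes (dotted), whether or not the ORF reaches that far. In set1 deletion cells the lines stay near 0, and in Cps25 wild-type cells the replication genes rise to 94.2% for H3K4me2 and 92.3% for H3K4me3 and fall below all genes by 700 bp.

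The upstream neighbour was divergently transcribed at 32 of 52 replication genes, 154 to 1985 bp away (61.5%, 47.0 to 74.7, against 51.9% of all genes). This interval includes the share of all genes. At 9 of the 49 genes marked by H3K4me2 the peak also held the neighbour's start codon (18.4%, interval 8.76 to 32.0, which includes the 13.8% of all genes). These were ORC6 with SET1, PSF2 with ARG2, PRI1 with MSL1, POL3 with QRI1, DPB3 with PPS1, RFC1 with RUD3, RFC2 with YAE1, RFC3 with MID1 and RFC4 with TRM10, at intergenic distances of 198 to 414 bp. The clamp loader accounted for 4 of the 9. Their H3K4me2 peaks had a median width of 1449 bp and a median percentile of 67.2, against 668.5 bp and 45.0 for the other 40. The score of a joined peak belongs to both genes, so the ranks of these 9 are not those of the replication gene alone.

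H3K4me3 was joined across the same intergenic regions at PRI1, POL3, RFC2 and RFC4 only. At ORC6, PSF2, DPB3, RFC1 and RFC3 the H3K4me3 list held separate peaks for the replication gene and its neighbour, with 64 to 88 bp between them. The ORC6 case involves the gene deleted in the mutant: an H3K4me2 peak on chromosome VIII from 344917 to 346729 covered the starts of ORC6 and SET1, while H3K4me3 ran from -61 to 594 bp of ORC6 and, separately, from 345754 to 346551 over SET1. Of the 9 replication genes, 44.4% thus had a joined H3K4me3 peak and 55.6% a peak of their own. Across the genome H3K4me2 peaks held another start at 622 genes, of which 51.8% had a joined H3K4me3 peak, 42.6% a peak of their own and 35 genes none, and 9 genes are too few to set the shares apart.

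The authors divided the H3K4me2 peaks of Cps25 wild-type cells into 2 clusters, and the sources used here do not give the basis. Of the 49 marked replication genes, DBF4 and TOP1 had a cluster 1 peak (4.08%, 0.498 to 14.0), against 19.2% of all marked genes, and the other 47 had a cluster 2 peak. The authors' deposited table of gene ontology terms for cluster 1 listed 59 terms and that for cluster 2 listed 21, and 0 of either had replication in its name. Over the 47 genes with both marks the score percentiles of H3K4me2 and H3K4me3 gave Pearson's r of 0.74 and Spearman's rho of 0.75, against 0.82 for each over all 3975 genes. These are descriptions across genes, which are not independent replicates, from lists that share the peak caller and the local chromatin.

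Other genes of the pathway, 51 in 4 lists, were marked nearly as often: 45 by H3K4me2 (88.2%) and 44 by H3K4me3 (86.3%), against 75.1% and 68.7% of all genes. Peaks of set1 deletion cells lay over 3 (H3K4me2 antibody) and 2 (H3K4me3 antibody) of the 51, where all genes had 4.75% and 3.40%. Both marks lay at 42 of the 51, against 66.2% of all genes, and the shares of the single lists below were not tested. All 8 genes of replication-linked histone chaperones, such as ASF1 and the chromatin assembly factor gene RLF2, carried both marks. Of 16 genes of fork protection and Okazaki fragment processing, 13 carried both, CTF8 had H3K4me3 alone, RRM3 had H3K4me2 alone and RNH203 had neither. Of 14 genes of G1/S transcription and S phase kinases, 11 carried both, SWI4 and the cyclin gene CLB6 had H3K4me2 alone, and CKS1 had H3K4me3 alone.

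The genes of deoxynucleotide supply and its control were marked at 10 of 13 by each mark (76.9%), near the 75.1% of all genes for H3K4me2 and above the 68.7% for H3K4me3. The 3 without either were SML1, the inhibitor of ribonucleotide reductase, HUG1, a gene induced by DNA damage, and DFR1, dihydrofolate reductase. All 3 had set1 deletion peaks of both antibodies within the 500 bp before or the 1000 bp after their start codon, and SML1 and DFR1 were themselves marked in set1 deletion cells. The absence of wild-type peaks at these genes cannot be told apart from the filter of the lists, and RNR1 and RNR3 had no set1 deletion peak so near. CKS1, with a set1 deletion H3K4me2 peak over its start, and RNH203 and CLB6, with set1 deletion peaks of both antibodies near theirs, are in the same position, while CTF8, RRM3 and SWI4 had none near their starts.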

How the data were processed

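Peak lists of 4 libraries were used, 1 per group, with groups and replicate numbers taken from the sample titles. The submitters' processing notes name Bowtie 1.1.2, MACS2 2.1.1 and build sacCer3. Settings, and whether the input was used, are not given in the sources used here. The score of each peak was deposited without its scale, and the wild-type H3K4me2 list also has, per the file headers, a cluster number and a nearest gene. The authors deposited Fisher p-values for gene ontology terms, not stated to be adjusted, of which only the term names were used.

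The gene table was RefSeq's for assembly R64, with strand read from the systematic name. Of 4018 deposited distances to genes in this table, 99.9% were met within 2 bp by an edge or the centre of the peak. Offsets are genomic, introns included. Where several peaks met a window, the highest-scoring was described. The members, roles and lists were chosen with earlier results of these data known. Every member is named, by rule. The few other genes are those that complete a small count or share a peak. Alternatives concern overlap, score, merging, extension, window and subsets of members. Python 3.11.15, numpy 2.4.6, pandas 2.3.3 and scipy 1.17.1 were used. The interval code was checked on simulated data of 200 intervals and against bedtools 2.31.1 on 4 lists, with 0 differing. Sequences were not used here, so a planned count of a promoter motif was not made.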

Additional observations from a re-analysis of the deposited data

How the results depend on the processing

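Of 111 values recomputed under 10 alternatives, 100 lay within the 95% interval of the reported value and 11 outside it. These intervals cover counting error over genes and are no measure of processing error, and the difference from all genes did not enter this count. Keeping the upper 50% of each list by score gave shares of 46.2% for H3K4me2 (40.7% of all genes) and 36.5% for H3K4me3 (36.6%). Both marks were at 30.8% (32% of all genes), H3K4me2 alone at 15.4% (8.71%) and neither at 48.1% (54.7%). In this setting the members thus did not exceed all genes for H3K4me3 or for both marks. Median percentiles were 66.4 and 62.6, which follows from leaving out the lower peaks. Extending peaks by 100 bp moved the median ends to 674 and 613 bp, by construction. Without MCM3 and POL32, which have set1 deletion peaks near their starts, H3K4me3 alone was at 0%, against 0.137% of all genes without such peaks. Among the 20 members with a neighbour upstream on the same strand H3K4me2 alone was at 0%, against 8.83% of all such genes. Under the alternatives other than the upper 50%, H3K4me2 marked 85.0 to 96.0% of members (73.5 to 80.9% of all genes). H3K4me3 marked 90% to 92.9% of members (67.3 to 74% of all genes). The lowest H3K4me2 share was that of the same 20 members. No set1 deletion peak was counted, except with a window from 250 bp upstream. That window gave 3.85% for each antibody, at MCM3 and POL32, against 7.75% (H3K4me2) and 5.38% (H3K4me3) of all genes. The planned motif count was not run. No paired analysis was possible because each group has 1 peak list. Depth is unknown, so a missing peak may lie under the authors' threshold.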
